A study of Homo sapiens with 9 samples.

Results

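MDA-MB-453 cells are an established human breast cancer cell line, and 10 of their genes that govern entry into the cell division cycle are described here: the D-type cyclins *CCND1*, *CCND2* and *CCND3*, the E-type cyclins *CCNE1* and *CCNE2*, and the CDK inhibitor genes *CDKN1A*, *CDKN1B*, *CDKN1C*, *CDKN2B* and *CDKN2C*. They were picked by symbol, by a rule that used no measured value, from the 59452 rows of the table of genes, and all 10 had a row. The genes, and the lists of other genes used below, were chosen with earlier results of these data known. A total of 9 bulk RNA-seq libraries were measured, with 3 libraries in each of 3 groups, all taken at 48 hours. Attached vehicle cells were grown on uncoated plastic with DMSO, suspended vehicle cells were kept from attaching by a poly-HEMA coat and given DMSO, and suspended AT-0174 cells were kept on the same coat with AT-0174 at 10 µmol/L. AT-0174 inhibits *TDO2* and *IDO1*, enzymes that degrade tryptophan. The cells of all groups were unmodified (labelled wild type) and came from 1 cell line. The replicates were described as biological triplicates. The 9 libraries included no attached cells with AT-0174, so an effect of the inhibitor in attached cells could not be measured. The question was which G1 genes differed in level once the cells had lost adhesion, and whether the inhibitor changed those levels.

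D-type cyclins activate *CDK4* and *CDK6* in G1, and E-type cyclins then activate *CDK2*, so that the RB protein is phosphorylated and E2F factors switch on the genes of DNA synthesis. The CIP/KIP proteins p21 (*CDKN1A*), p27 (*CDKN1B*) and p57 (*CDKN1C*) bind cyclin and CDK together, whereas the INK4 proteins p15 (*CDKN2B*) and p18 (*CDKN2C*) bind *CDK4* and *CDK6* and keep the D-type cyclins off. In normal epithelial cells the D-type cyclins depend on both growth factors and attachment, and p21 and p27 are classic brakes on cells that have lost their anchorage.

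The libraries held 36649997 to 48019126 estimated counts. The luminal markers *KRT8*, *KRT18*, *KRT19*, *EPCAM*, *CDH1*, *FOXA1*, *GATA3* and *SPDEF* were present in each library, the lowest being *CDH1* at 48.0 to 58.3 CPM (counts scaled to the library total by TMM). The cell line is labelled triple-negative, and the estrogen receptor gene *ESR1* was at 0 to 4 counts and the progesterone receptor gene *PGR* at 5 to 18 counts, but *ERBB2* was at 1029 to 1082 CPM, so the label and the *ERBB2* RNA level were at odds. Of the markers of other cells, *KRT5*, *KRT14*, *COL1A2*, *PDGFRB*, *PTPRC*, *CD3E* and *CD14* had at most 8 counts in any library, *TP63* lay at 5.13 to 6.23 CPM, and *COL1A1* at 107 to 149 CPM.

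After loss of adhesion 5 of the G1 genes had changed, none by more than 1.29-fold. In suspended vehicle cells *CCND1*, *CCND3*, *CDKN1A* and *CDKN1B* were higher than in attached vehicle cells, *CDKN2C* was lower, and 4 genes (*CCNE1*, *CCNE2*, *CDKN1C* and *CDKN2B*) did not pass the test. Genes were called at an adjusted p under 0.05 over 15528 genes, by quasi-likelihood in edgeR. Of the 10 genes, 9 passed the filter on low counts, the exception being *CCND2*. Genes called in this comparison made up 21.2% of all genes tested, 10.4% higher and 10.8% lower, and the median log2 fold change was 0.13 over the 9 genes and 0.00 over all genes. The 3 suspended and 3 attached libraries did not overlap for 5 genes on the higher side and 2 on the lower side, against 19.4% and 18.7% of all genes tested, or 38.1% in all. A change in the level of a gene in these bulk samples cannot be told apart from a change in the share of cells that express it.

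**Figure D1:**
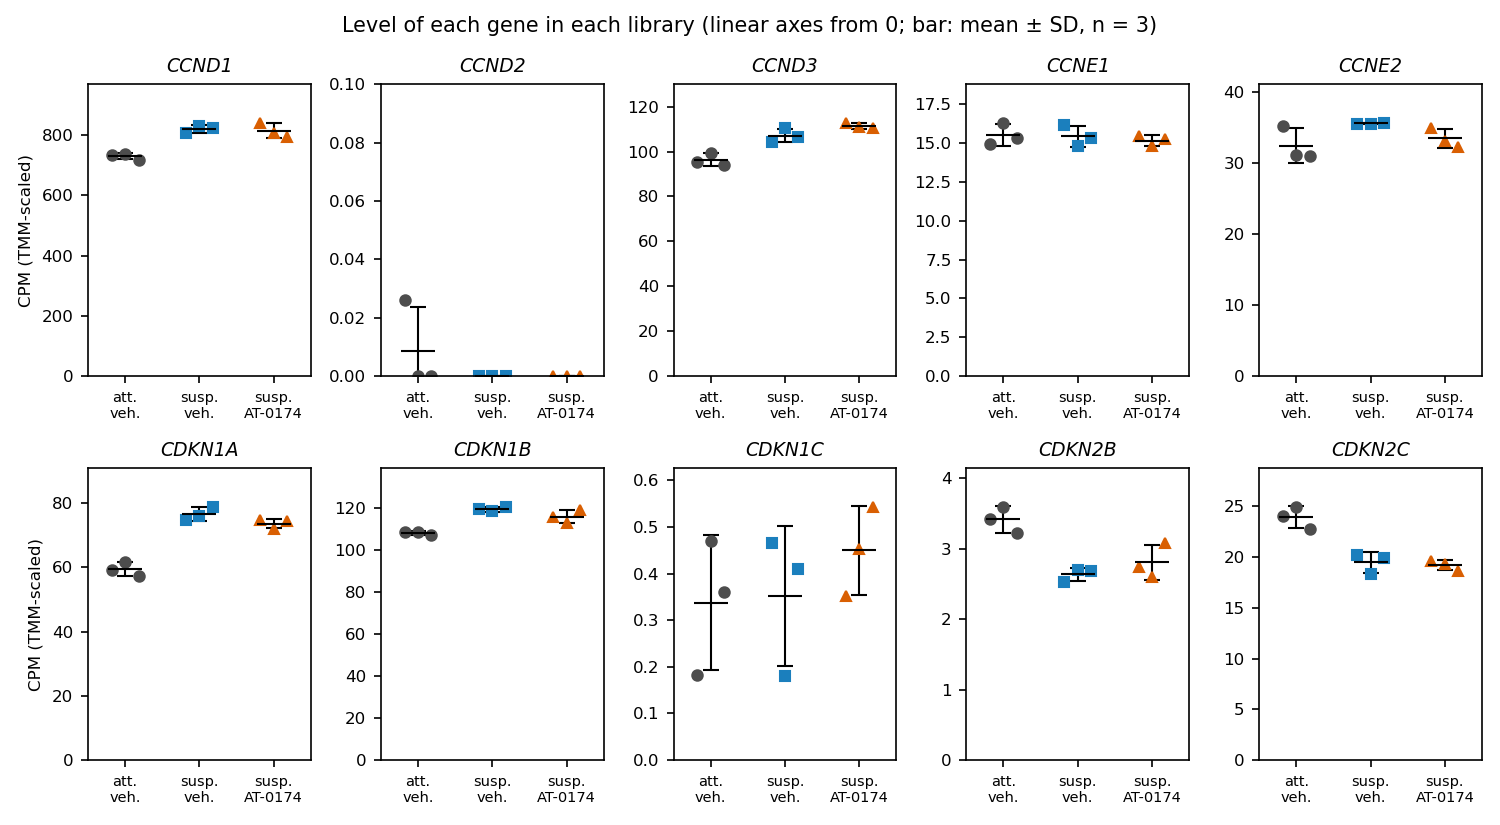
Level of each of the 10 genes in each library, in TMM-scaled CPM on linear axes that start at 0, with a point per library and a bar for the mean ± SD (n = 3). Both suspended groups sit above the attached group for *CCND1*, *CCND3*, *CDKN1A* and *CDKN1B* and below it for *CDKN2C*, and *CCND2* is at the floor throughout.

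Among the D-type cyclins, *CCND1* (ENSG00000110092, GRCh38 chr11:69641156-69654474, plus strand) had 733, 737 and 718 CPM in the 3 attached vehicle libraries, 805, 830 and 822 CPM in the suspended vehicle libraries and 841, 807 and 793 CPM in the suspended AT-0174 libraries. All 6 suspended libraries were above all 3 attached ones. In suspended vehicle cells *CCND1* rose from 729 ± 9.93 to 819 ± 12.8 CPM (SD, n = 3 in each), a log2 fold change of 0.17 (SE 0.031, 95% interval 0.10 to 0.23, edgeR adjusted p = 0.003).

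*CCND3* (ENSG00000112576, chr6:41934934-42050357, minus strand), whose product shares the partners *CDK4* and *CDK6*, had 95.4, 99.5 and 94.2 CPM in attached vehicle libraries, 104.4, 110.4 and 106.6 CPM in suspended vehicle libraries, and 113, 111 and 110.3 CPM with AT-0174. The groups did not overlap between attached and suspended cells here either. Its rise with suspension was of the size of that of *CCND1*, with a log2 fold change of 0.15 (SE 0.034, edgeR adjusted p = 0.00824).

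*CCND2* (ENSG00000118971, chr12:4269771-4305353, plus strand) had 1 count in attached vehicle replicate 1 and 0 counts in each of the other libraries. A count of 0 allows a level of up to 3 counts, or 0.0625 to 0.0819 CPM depending on the library. No fold change was computed for it. This floor covers counting error only.

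By the estimates of Salmon, the program used to quantify transcripts, short transcripts made up most of the *CCND1* values. The gene table sums the 6 *CCND1* transcripts that were quantified. The full-length coding transcript ENST00000227507 is 4238 bases long with 5 exons, the last of 3357 bases, and it held 5.76 ± 0.137%, 5.198 ± 0.162% and 5.42 ± 0.47% (SD, n = 3) of the *CCND1* TPM (transcript abundance per length, scaled to a fixed total) in attached vehicle, suspended vehicle and suspended AT-0174 cells. The transcript ENST00000539241 of 920 bases, annotated as a retained intron at the 5′ end of the gene, held 40.4 to 41.0% on average, and the retained-intron transcripts ENST00000542367 of 476 bases and ENST00000545484 of 430 bases about as much as each other, 24.7 to 25.9% and 25.2 to 25.8%.

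By estimated counts, which favour long transcripts, the full-length form took 30.1 to 34.1% per library and ENST00000539241 took 43.4 to 46.0%. The full-length form was at 84.3, 81.9 and 80.2 TPM in attached vehicle cells, 90.3, 92.5 and 95.6 TPM in suspended vehicle cells, and 91.1, 87.5 and 95.9 TPM with AT-0174. The suspended libraries were again all above the attached ones. When only the 2 protein-coding *CCND1* transcripts were counted, a choice made after these values were seen, the log2 fold change with suspension was 0.06 and no longer passed the test (edgeR adjusted p = 0.203). The *CCND1* call thus held for the sum of transcripts and was lost for the counts that Salmon assigned to the coding ones. The short transcripts share exon sequence with the full-length form. Bases 1875 to 2090 from the gene start, for example, are an exon of both ENST00000539241 and ENST00000227507. Whether the coding RNA changed less than the sum therefore cannot be told from this split.

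**Figure D2:**
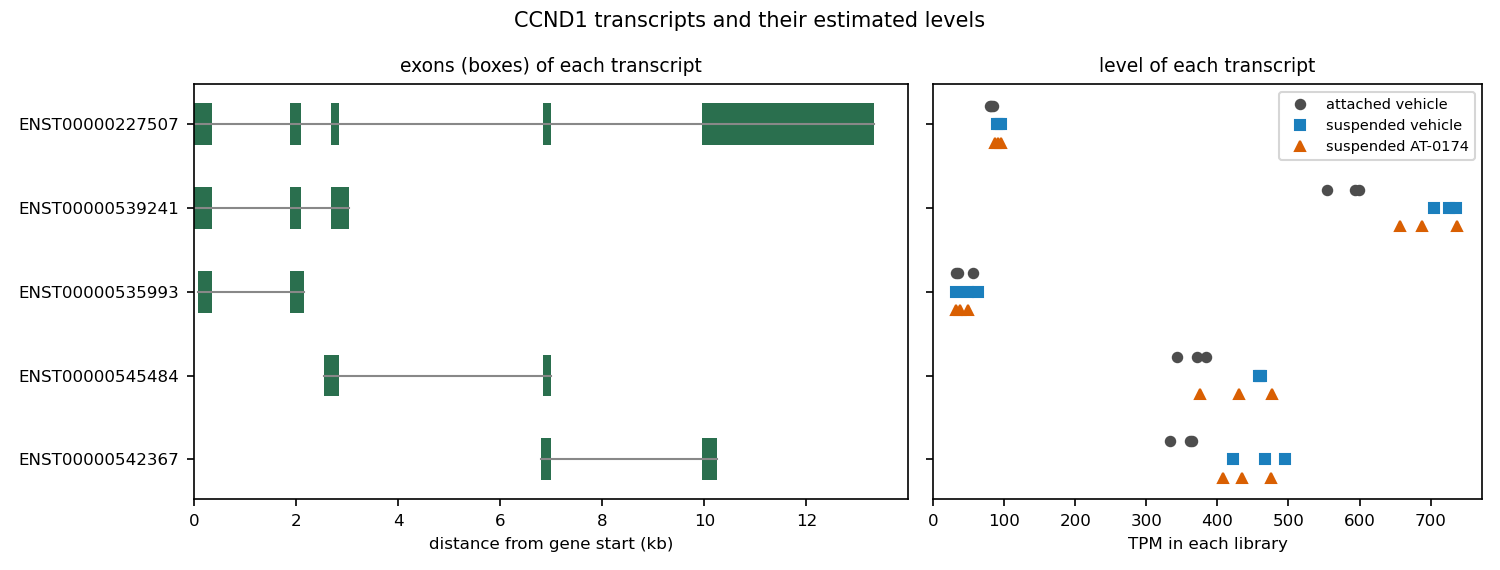
Exons of the 5 leading *CCND1* transcripts by distance from the gene start in kilobases (left) and the level of each in each library in TPM (right). ENST00000539241, at 582, 722 and 694 TPM on average in attached vehicle, suspended vehicle and suspended AT-0174 cells, stands above the full-length ENST00000227507, at 82.2, 92.8 and 91.5 TPM.

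The E-type cyclins did not pass the test. *CCNE1* (ENSG00000105173, chr19:29811991-29824312, plus strand) had 15.0, 16.3 and 15.3 CPM in attached vehicle cells, 16.2, 14.8 and 15.3 CPM in suspended vehicle cells and 15.5, 14.8 and 15.2 CPM with AT-0174. The 3 groups overlapped fully. The log2 fold change with suspension was -0.01, with a 95% interval of -0.13 to 0.11 (edgeR adjusted p = 0.93).

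*CCNE2* (ENSG00000175305, chr8:94879770-94896678, minus strand) had 35.2, 31.1 and 30.9 CPM in attached vehicle cells and 35.5, 35.5 and 35.7 CPM in suspended vehicle cells. The groups did not overlap, but attached vehicle replicate 1 lay just under the suspended ones. Its log2 fold change was 0.13, with an interval of 0.02 to 0.25 and an edgeR adjusted p of 0.0971. Without attached vehicle replicate 1 it became 0.20 with an adjusted p of 0.0183. This was the only 1 of the 6 fits with a library left out in which *CCNE2* passed, and their log2 fold changes ran from 0.10 to 0.20.

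Of the CIP/KIP genes, *CDKN1A* had the largest change among the 9 genes tested on the higher side. *CDKN1A* (ENSG00000124762, chr6:36676460-36687337, plus strand) encodes p21, the inhibitor that p53 induces, and had 59.3, 61.8 and 57.4 CPM in attached vehicle cells. It had 74.8, 76.0 and 79.0 CPM in suspended vehicle cells and 74.6, 71.9 and 74.5 CPM with AT-0174. All 6 suspended libraries were above all 3 attached ones. *CDKN1A* rose from 59.5 ± 2.16 to 76.6 ± 2.16 CPM with suspension (SD, n = 3 in each), a 1.29-fold difference (log2 0.36, SE 0.039, 95% interval 0.28 to 0.45, edgeR adjusted p = 9.37e-05).

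*CDKN1B* (ENSG00000111276, chr12:12685498-12722369, plus strand), which encodes p27, had 108, 109 and 107 CPM in attached vehicle cells, 119, 118 and 121 CPM in suspended vehicle cells, and 115, 113 and 119 CPM with AT-0174. Attached and suspended libraries did not overlap. Its log2 fold change with suspension was 0.15 (SE 0.031, edgeR adjusted p = 0.00618), and it was 0.09 and did not pass (adjusted p = 0.361) when counts were rebuilt from TPM, a scaling that also takes account of transcript length.

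*CDKN1C* (ENSG00000129757, chr11:2883213-2885775, minus strand), which encodes p57, was near the detection limit with 7, 17 and 14 counts in attached vehicle cells, 18, 8 and 18 in suspended vehicle cells and 17, 19 and 24 with AT-0174. The groups overlapped, and the interval of its log2 fold change with suspension, -0.89 to 0.99, was wide (edgeR adjusted p = 0.947). These counts are compatible with any change inside this interval, so they do not settle whether *CDKN1C* changed.

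The sequences upstream of 4 of these genes are shown because 3 of them (*CCND3*, *CDKN1A* and *CDKN1B*) moved together on loss of adhesion while *CCNE1* did not pass the test. Each is the stretch of 250 bases before the start of the leading transcript, from RefSeq promoter windows on GRCh38.p14. It is written 5′ to 3′ on the strand of the gene. No window was available for *CCND1*, which also rose. Capitals mark matches to the GC box GGGCGG, which binds SP1, or to the CCAAT box CCAAT, which binds NF-Y, on either strand, and neighbouring matches may overlap or touch. *CCND3* lies at chr6:41941809-41942058 on the minus strand, *CCNE1* at chr19:29811741-29811990, *CDKN1A* at chr6:36678464-36678713 and *CDKN1B* at chr12:12717118-12717367, these 3 on the plus strand.
CCND3: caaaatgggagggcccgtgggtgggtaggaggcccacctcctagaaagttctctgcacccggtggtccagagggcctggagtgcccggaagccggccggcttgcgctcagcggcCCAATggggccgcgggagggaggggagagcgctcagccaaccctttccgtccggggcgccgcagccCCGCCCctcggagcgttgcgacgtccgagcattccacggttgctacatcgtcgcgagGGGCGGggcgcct
CDKN1A: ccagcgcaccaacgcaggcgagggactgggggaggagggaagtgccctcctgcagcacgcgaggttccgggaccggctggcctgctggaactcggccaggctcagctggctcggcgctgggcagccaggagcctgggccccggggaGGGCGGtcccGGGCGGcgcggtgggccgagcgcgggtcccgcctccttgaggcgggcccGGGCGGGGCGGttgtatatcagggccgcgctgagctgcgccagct
CDKN1B: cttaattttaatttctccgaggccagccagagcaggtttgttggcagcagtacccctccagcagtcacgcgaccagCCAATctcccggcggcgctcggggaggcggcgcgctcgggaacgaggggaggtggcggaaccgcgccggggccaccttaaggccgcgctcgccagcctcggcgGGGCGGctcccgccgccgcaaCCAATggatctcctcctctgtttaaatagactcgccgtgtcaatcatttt
CCNE1: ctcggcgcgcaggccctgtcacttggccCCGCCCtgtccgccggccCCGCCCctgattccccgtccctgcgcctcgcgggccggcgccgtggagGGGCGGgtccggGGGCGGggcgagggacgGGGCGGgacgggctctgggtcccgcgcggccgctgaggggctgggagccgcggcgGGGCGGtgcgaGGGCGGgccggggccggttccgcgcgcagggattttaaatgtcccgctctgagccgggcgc

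The *CCND3* stretch held 2 GC boxes and 1 CCAAT box, that of *CDKN1A* 4 GC boxes and no CCAAT box, that of *CDKN1B* 1 GC box and 2 CCAAT boxes, and that of *CCNE1* 7 GC boxes and no CCAAT box. The GC box was present in 42.6% of all 35116 such stretches and the CCAAT box in 32% of them. The stretches of *CCND3*, *CDKN1A*, *CDKN1B* and *CCNE1* were 71.2%, 76.4%, 64.4% and 81.2% G or C, against a median of 58% over all stretches. The same stretch of *CDKN2C*, not printed, held 5 GC boxes and 2 matches to an E2F motif (TTCCCGC or TTGGCGC). That motif was present in 7.81% of all stretches. All 250 bases of the *CDKN2C* stretch also lie in an exon of 1 other *CDKN2C* transcript, so it is not upstream sequence alone. The stretches of *CCND3*, *CDKN1A* and *CDKN1B* lie within the span of 14, 3 and 3 other transcripts of their genes. That of *CDKN1A* holds 4 exon bases, and those of *CCND3* and *CDKN1B* hold none. None of the 5 held an E-box (CACGTG, the motif of *MYC*), an AP-1 site (TGACTCA), a CRE (TGACGTCA) or a FOXO site (GTAAACA). These occurred in 6.34%, 4.2%, 1.65% and 2.98% of all stretches. A GC box was present in each of the 5. Whether any of these motifs bears on the changes in level was not tested.

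Of the INK4 genes, *CDKN2C* fell in suspended cells and *CDKN2B* did not pass the test. *CDKN2C* (ENSG00000123080, chr1:50960745-50974634, plus strand), which encodes p18, had 24.1, 24.98 and 22.8 CPM in attached vehicle cells, 20.2, 18.3 and 19.9 CPM in suspended vehicle cells and 19.6, 19.3 and 18.6 CPM with AT-0174. Every attached library was above every suspended one. *CDKN2C* fell with suspension from 23.9 ± 1.12 to 19.5 ± 1.01 CPM (SD, n = 3 in each), a log2 fold change of -0.30 (SE 0.054, 95% interval -0.41 to -0.18, edgeR adjusted p = 0.0029).

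*CDKN2B* (ENSG00000147883, chr9:22002903-22009305, minus strand), which encodes p15, had 3.42, 3.60 and 3.22 CPM in attached vehicle cells and 2.53, 2.698 and 2.686 CPM in suspended vehicle cells, from 98 to 131 counts per library. The groups did not overlap, and the log2 fold change of -0.37 (interval -0.64 to -0.10) had an edgeR adjusted p of 0.0515. This value depended on how the transcripts were summed. It was -0.55 (adjusted p = 0.0445) over the 2 protein-coding transcripts and -0.05 (adjusted p = 0.901) with counts rebuilt from TPM. The antisense gene *CDKN2B-AS1* overlaps *CDKN2B* along its whole length and had 44.7 to 63.0 counts per library. Another antisense gene, ENSG00000264545, does so too, with 0 to 31 counts. Whether counting used the strand is not given in the sources used here. The same limit holds for other genes overlapped on the opposite strand, among them *CCNE2* (by *INTS8*, 1578 to 2228 counts) and *CDKN1B* (by *GPR19*, 47 to 90 counts).

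**Figure D3:**
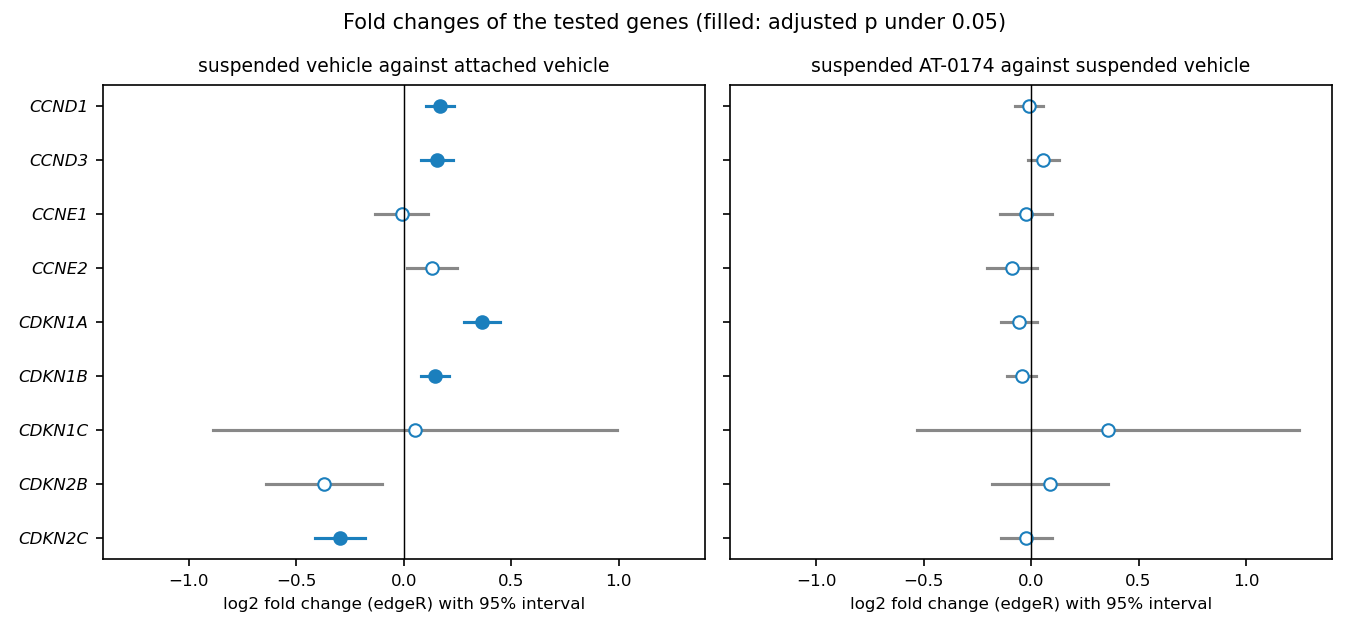
Log2 fold change of the 9 tested genes with its 95% interval, for suspended vehicle against attached vehicle (left) and suspended AT-0174 against suspended vehicle (right), with filled points for an adjusted p under 0.05. On the left 4 genes are higher and 1 is lower, and on the right no gene is filled and *CDKN1C* has the widest interval.

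To set the genes beside each other, levels were compared per transcript length as TPM within a library. *CCND1* led in attached vehicle cells with 1427 ± 49.9 TPM, and *CCND3* (75.8 ± 1.21), *CDKN1B* (71.2 ± 1.68), *CDKN1A* (42.1 ± 2.28), *CCNE2* (28.1 ± 2.01), *CDKN2C* (17.4 ± 1.03), *CCNE1* (14.4 ± 0.283), *CDKN2B* (2.07 ± 0.159) and *CDKN1C* (0.306 ± 0.15) followed in TPM (SD, n = 3). No neighbours in this order overlapped over the 3 attached libraries. In suspended vehicle cells *CCNE1* (15.4 to 16.1 TPM) and *CDKN2C* (14.7 to 15.8 TPM) changed places and overlapped. With AT-0174 they overlapped in the order of the attached cells.

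*CCND1* made up 94.96 ± 0.111% of the TPM of the D-type cyclins in attached vehicle cells, 95.2 ± 0.0194% in suspended vehicle cells and 94.9 ± 0.275% with AT-0174. Most of the margin of *CCND1* over *CCND3* was in TPM that Salmon assigned to transcripts annotated as noncoding. These share exon sequence with the coding form, so the split is an estimate. With protein-coding transcripts only, *CCND1* stood at 85.2 ± 1.75 TPM and *CCND3* at 74.4 ± 1.66 TPM in attached cells, and at 95.6 ± 3.18 and 89.0 ± 3.124 TPM in suspended vehicle cells (SD, n = 3). *CCND3*, *CDKN1A*, *CDKN1B* and *CDKN2C* were almost wholly coding, with 97.1% or more of their TPM in coding transcripts. The coding share per library was 56.5 to 72.6% for *CCNE2*, 34.9 to 100% for *CDKN2B* and 75.4 to 100% for *CDKN1C*.

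Among the E-type cyclins *CCNE2* was the more abundant, with 66.1 ± 1.16% of their TPM in attached vehicle cells and 67.7 ± 0.82% in suspended vehicle cells. Among the CIP/KIP genes *CDKN1B* held 62.7 ± 0.827% of the TPM in attached vehicle cells and 57.9 ± 2.16% in suspended vehicle cells, and *CDKN1A* held 37.0 ± 0.765% and 41.9 ± 2.18%. The share of *CDKN1A* was higher in each suspended vehicle library (39.6 to 43.9%) than in any attached library (36.3 to 37.8%). Within the INK4 pair *CDKN2C* held 89.4 ± 1.24% in attached vehicle cells and 87.8 ± 0.763% in suspended vehicle cells, and the ranges overlapped.

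**Figure D4:**
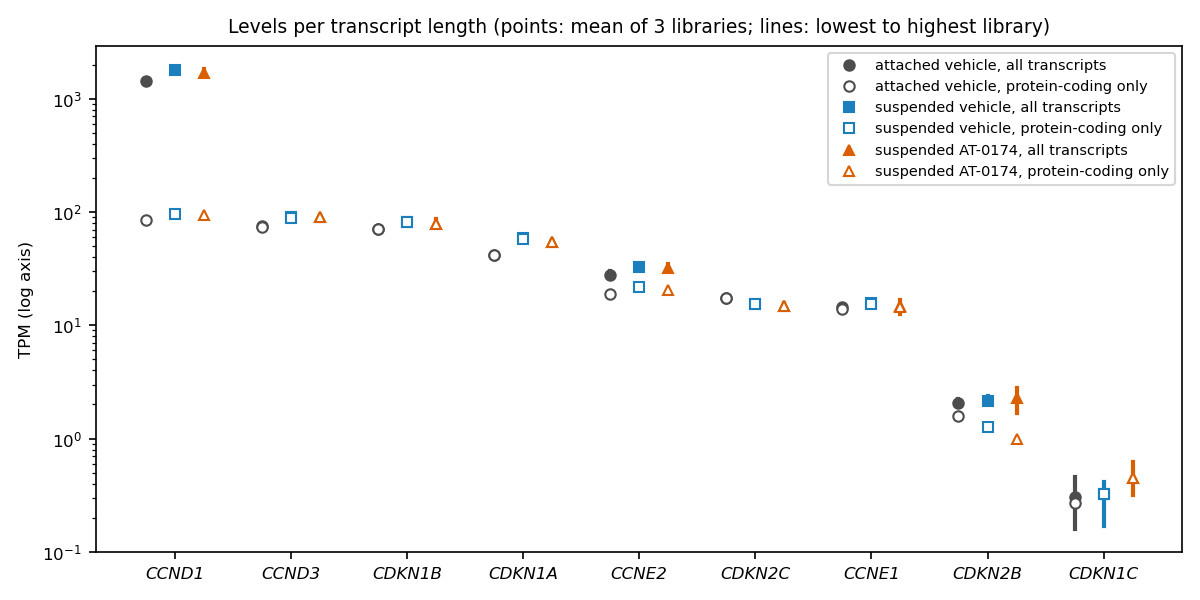
Level per transcript length in TPM on a log axis for the 9 genes above the detection floor, as the mean of 3 libraries with a line from the lowest to the highest, over all transcripts (filled) and protein-coding transcripts only (open). *CCND1* falls from 1427 TPM over all transcripts to 85.2 TPM over coding ones in attached vehicle cells, next to *CCND3*.

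AT-0174 did not move any of these genes past the test. Of the 9 genes, 0 were called between suspended AT-0174 and suspended vehicle cells by edgeR, and 0 by DESeq2 and by limma-voom, and none had an unadjusted p under 0.05. The lowest adjusted p was 0.672, for *CCND3*. Genes called in this comparison made up 0.779% of all genes tested, 0.522% higher and 0.258% lower.

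The estimated differences with AT-0174 lay from -0.09 to 0.09 on the log2 scale for all tested genes but *CDKN1C*. Their intervals allow larger differences, and the interval of *CDKN2B* was the widest of these. *CCND1* differed by -0.01 on the log2 scale (95% interval -0.08 to 0.06), *CCND3* by 0.06 (-0.02 to 0.13), *CCNE1* by -0.02 (-0.15 to 0.10) and *CCNE2* by -0.09 (-0.20 to 0.03). For the inhibitors, *CDKN1A* differed by -0.06 (-0.14 to 0.03), *CDKN1B* by -0.04 (-0.11 to 0.02), *CDKN2C* by -0.02 (-0.14 to 0.10) and *CDKN2B* by 0.09 (-0.18 to 0.36). The interval of *CDKN1C*, at 0.36, ran from -0.53 to 1.25.

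The groups did not overlap for 2 genes, both lower with AT-0174, where 15.4% of all genes tested did not overlap, 7.75% higher and 7.66% lower. These were *CCNE2*, with 34.9, 33.1 and 32.2 CPM under AT-0174, and *CDKN1A*, for which the nearest libraries of the 2 groups were 74.6 and 74.8 CPM.

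Suspended AT-0174 cells were also set against attached vehicle cells, a comparison that shares its libraries with the others. The 5 genes called were *CCND1* (log2 fold change 0.16, adjusted p = 0.0031), *CCND3* (0.21, 0.00113), *CDKN1A* (0.31, 0.000225) and *CDKN1B* (0.10, 0.029) on the higher side and *CDKN2C* (-0.32, 0.0014) on the lower side, by edgeR, where 24% of all genes tested were called, 12.2% higher and 11.8% lower. The libraries did not overlap for 4 genes on the higher side and 2 on the lower side, the latter including *CDKN2B*, against 20.4% and 19.1% of all genes, or 39.5% in all. For suspended vehicle against attached vehicle cells the same genes had 0.17, 0.15, 0.36, 0.15 and -0.30. The other genes had log2 fold changes of -0.03 (*CCNE1*), 0.04 (*CCNE2*), 0.41 (*CDKN1C*) and -0.28 (*CDKN2B*), with adjusted p from 0.117 to 0.716. The *CDKN1B* call was not firm, since it passed in only 1 of the 6 fits that left out an attached vehicle or suspended AT-0174 library.

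The partners and regulators of these genes were described by 8 lists with 123 genes, of which 120 were tested. On loss of adhesion 17 rose and 9 fell, or 21.7% of those tested, against 21.2% of all genes, with a median log2 fold change of 0.04. The lists were thus called about as often as any gene. No gene of the lists passed between AT-0174 and vehicle in suspended cells by edgeR, DESeq2 or limma-voom, with 8 at an unadjusted p under 0.05, and without the filter on low counts 3 passed (*BTG2*, *JUN* and *KLF6*).

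Of the 8 CDKs of G1 and their activators, 1 rose and 1 fell, with a list median of -0.01. *CDK4*, the kinase partner of the D-type cyclins, rose from 113 ± 3.90 to 122 ± 3.33 CPM (SD, n = 3; log2 0.11, edgeR adjusted p = 0.0398), and *CDC37*, the chaperone that brings *CDK4* to HSP90, fell by 0.12 on the log2 scale (adjusted p = 0.0471). Of the 3 genes of the list of other INK4 inhibitors and a CDK phosphatase, 1 rose, and it was no INK4 gene but *CDKN3*, a phosphatase that acts on *CDK2* (log2 0.14, adjusted p = 0.0386).

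Of 15 genes of the RB family, E2F and the DREAM complex, 0 rose and 2 fell, with a median of 0.05. *LIN37*, a DREAM subunit, had 13.3, 12.2 and 13.8 CPM in attached vehicle cells and 9.66, 10.9 and 11.0 CPM in suspended vehicle cells (log2 -0.31, edgeR adjusted p = 0.00884). *E2F4*, the E2F that mostly represses, fell by 0.19 on the log2 scale (adjusted p = 0.00925).

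The enzymes that turn over G1 cyclins and KIP proteins moved both ways, with 2 of 18 higher and 2 lower and a median of 0.04. *FBXW7*, the F-box protein that recognises phosphorylated cyclin E, had 94.8, 91.8 and 94.0 CPM in attached vehicle cells and 79.1, 79.0 and 85.1 CPM in suspended vehicle cells, and fell by 0.21 on the log2 scale (adjusted p = 0.00252). *RBX1*, the RING subunit of cullin ligases, rose by 0.18 (adjusted p = 0.00701) and *DDB1*, the CUL4 adaptor, by 0.10 (adjusted p = 0.0441). *RNF123*, part of a ligase for p27, fell by 0.14 (adjusted p = 0.0393).

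Of the 15 tested transcription factors of G1 cyclins and CDK inhibitors, 6 rose and 1 fell, with a median of 0.08. *MYC*, which drives D-type cyclin and *CDK4* expression and represses *CDKN1A* and *CDKN2B*, had 60.0, 58.4 and 53.5 CPM in attached vehicle cells, 78.4, 83.4 and 77.9 CPM in suspended vehicle cells and 85.6, 89.2 and 85.4 CPM with AT-0174. It rose by 0.48 on the log2 scale with suspension (SE 0.046, adjusted p = 4.38e-05). This estimate was larger than that of any of the 9 G1 genes tested, though the wide interval of *CDKN1C* reached past it. *JUN*, an AP-1 subunit, rose by 0.43 (adjusted p = 0.00243), *FOXO3*, an activator of *CDKN1B*, by 0.18 (adjusted p = 0.00816), and *TCF7L2*, the partner of beta-catenin, fell by 0.28 (adjusted p = 0.00243).

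*CDKN1A* is a p53 target, and of 24 other p53 targets tested 2 rose and 2 fell, with a median of 0.00. *AEN*, a nuclease, had 29.1, 29.7 and 30.2 CPM in attached vehicle cells and 36.9, 36.5 and 35.3 CPM in suspended vehicle cells (log2 0.29, edgeR adjusted p = 0.000776). *MDM2*, the ligase of p53, rose by 0.15 (adjusted p = 0.0062), *TP53I3*, an oxidoreductase, fell by 0.19 (adjusted p = 0.039) and *XPC*, which recognises DNA damage, fell by 0.13 (adjusted p = 0.0473).

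Downstream of the G1 cyclins, 2 of 21 E2F targets of S phase rose and 1 fell, with a median of 0.04. *RRM2*, a ribonucleotide reductase subunit, rose by 0.15 (adjusted p = 0.0115) and *MCM4*, a subunit of the replicative helicase, by 0.10 (adjusted p = 0.0423), and *POLE*, the catalytic subunit of a replicative polymerase, fell by 0.20 (adjusted p = 0.0182). Of 16 mitosis genes 3 rose and 0 fell, with a median of 0.06. *CCNB1*, the mitotic cyclin B1, had 113, 111 and 102 CPM in attached vehicle cells and 126, 127 and 128 CPM in suspended vehicle cells (log2 0.22, adjusted p = 0.00429), and *CDC20* and *PLK1* rose by 0.11 (adjusted p = 0.0169) and 0.10 (adjusted p = 0.0395).

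**Figure D5:**
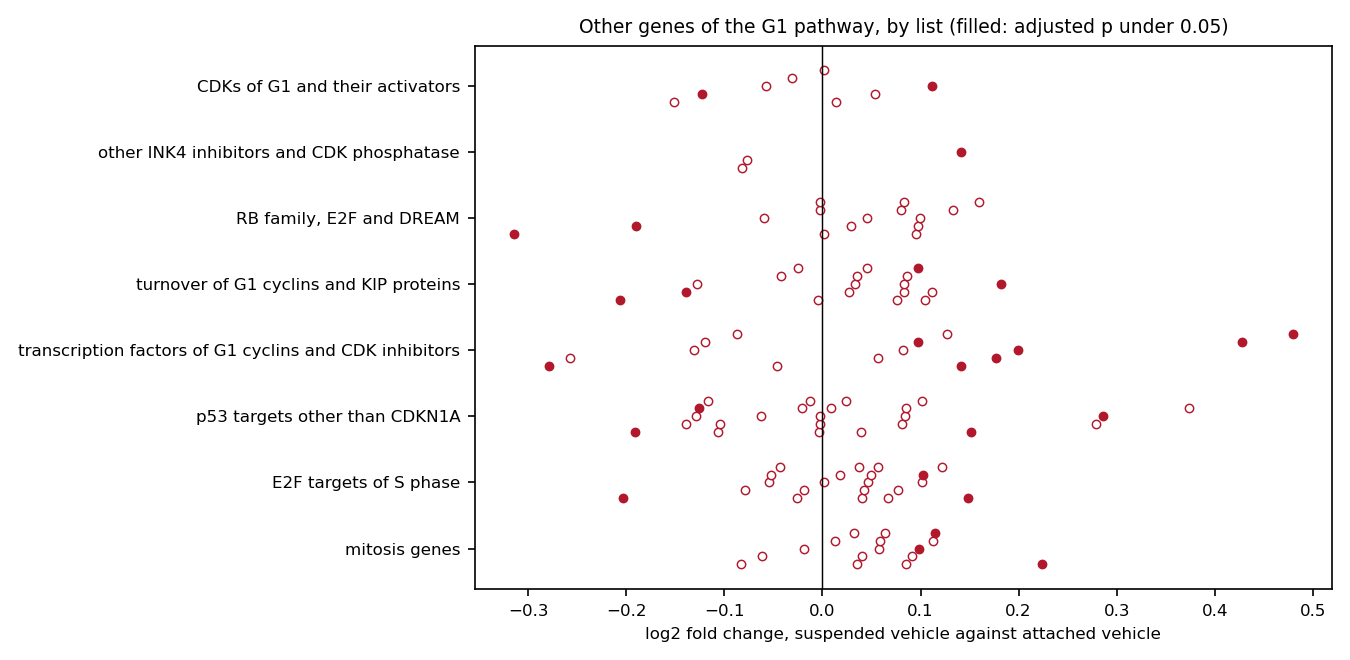
Log2 fold change of suspended vehicle against attached vehicle for each tested gene of the 8 lists, with a point per gene and filled points for an adjusted p under 0.05. Points lie on both sides of 0 in each list, and *MYC* (0.48) and *JUN* (0.43) are farthest to the right.

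The genes whose levels followed each G1 gene most closely over the 9 libraries were found by Pearson's r of log2 CPM among 12518 genes, as a description with no test, since the libraries share 3 conditions. They were *DCTPP1* (r = 0.993) and *AGPAT2* for *CCND1*, *XPO6* (0.993) and *COPG1* (0.992) for *CCND3*, *NET1* and *HDAC3* for *CCNE1*, and *DENND10* (0.946) and *RBM15B* for *CCNE2*. For the inhibitors they were *FOXA1* (0.991) and *C12orf66* (0.989) for *CDKN1A*, *CXADR* (0.989) and *GNA12* (0.984) for *CDKN1B*, *ZC3H10* (0.933) for *CDKN1C*, *NORAD* and *ZNF286A* (0.948) for *CDKN2B*, and *ARHGDIB* (0.982) and *PLPP4* (0.969) for *CDKN2C*. The lowest of these values belonged to *HDAC3* for *CCNE1*, the gene whose groups overlapped fully.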

How the data were processed

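RNA of MDA-MB-453 cells from 9 cultures (3 attached vehicle, 3 suspended vehicle, 3 suspended AT-0174) was sequenced by the authors. Per the labels and the methods of the study, adapters were removed with Cutadapt 3.4 in Trim Galore 0.6.7, reads were aligned with STAR 2.7.9a to GRCh38, and Salmon 1.10.1 gave transcript values that were summed by gene. The deposited gene table holds estimated counts, which the authors did not normalize, and the deposited transcript tables hold estimated counts and TPM, which Salmon scales by effective transcript length. The labels and the study's methods name different library kits, so strand use is unclear.

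Estimated counts were rounded. Genes were filtered with filterByExpr, scaled by TMM and tested in a single quasi-likelihood fit over all 9 libraries in edgeR 4.0.16 (R 4.3.3), with Benjamini-Hochberg adjustment over 15528 genes and a threshold of 0.05. DESeq2 1.42.0, limma-voom (limma 3.58.1), counts rebuilt from TPM, other filters and thresholds, fits on 6 libraries, a replicate block and each library left out were the alternatives. The scripts were tested on simulated data. TPM were compared between genes within libraries. TPM of *CCND1* transcripts, coding TPM and shares of TPM were also set side by side between groups, without TMM scaling or a test. Positions came from GENCODE 44, upstream sequences from RefSeq.

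All 10 genes are named, with up to 3 changed genes per list, comparison and direction by the smallest adjusted p, and the 2 genes of highest correlation with each (at least 50 normalized counts). A marker and a correlated gene are not reported here. *BTG2* and *KLF6* were named after their values were seen. The rule for the genes used no measured value, but the genes and lists were chosen with earlier results of these data known.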

Additional observations from a re-analysis of the deposited data

How the results depend on the processing

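Calls of the G1 genes kept their direction and side of the threshold in most alternatives. Of 133 values of single genes under alternatives in each comparison, 120 (suspended vehicle against attached vehicle), 126 (suspended AT-0174 against suspended vehicle) and 122 (suspended AT-0174 against attached vehicle) did so. The number of changed G1 genes was 5, 0 and 5, and ranged over all alternatives from 4 to 6, from 0 to 0 and from 4 to 5. It was 5 to 6, 0 and 4 to 5 with 1 library left out. With a replicate block it was 5, 0 and 5, and the block changed no call of a G1 gene. Libraries with the same number did not deviate together (r from -0.0652 to 0.0526, against -0.0862 to 0.0886 for different numbers). These values gave no sign of pairing by number, but they cannot show whether cultures of the same number were handled together.

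With suspension, *CDKN2B* passed by limma-voom (adjusted p = 0.0488) and with a minimum count of 10 (0.0434). The values that changed sign had not passed the test in their comparison. With suspension these were *CCNE1*, at 0.027 with counts rebuilt from TPM and 0.0014 over coding transcripts, and from -0.040 to 0.029 with 1 library left out (above 0 without attached vehicle replicate 2 or suspended vehicle replicate 2), and *CDKN1C*, from -0.24 to 0.38 with 1 library left out (under 0 without attached vehicle replicate 1 or suspended vehicle replicate 1 or 3). With AT-0174 in suspended cells, over coding transcripts, they were *CCND1* (0.025) and *CDKN2B* (-0.069), and with counts rebuilt from TPM *CCNE2* (0.016), *CDKN1B* (0.0058) and *CDKN2C* (0.0012). In that comparison *CCND1* went from -0.035 to 0.0035 with 1 library left out (above 0 without suspended AT-0174 replicate 3) and *CCNE1* from -0.058 to 0.0053 (above 0 without suspended vehicle replicate 1). Against attached vehicle they were *CCNE1*, from -0.059 to 0.0049 (above 0 without attached vehicle replicate 2), and *CDKN2B*, at 0.078 with counts rebuilt from TPM, which over coding transcripts was -0.62 and passed (adjusted p = 0.0244). *CCND1* was 0.09 over coding transcripts in that comparison and did not pass (adjusted p = 0.0722). The causes were not tested.

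Counts over all genes moved more. With suspension 3297 genes were called, 1712 with counts rebuilt from TPM, 1951 without suspended vehicle replicate 2 and 1935 without attached vehicle replicate 3. With AT-0174 in suspended cells 121 were called, 239 by DESeq2, 499 without the filter, 35 with counts rebuilt from TPM, and 63 to 86 with 1 library left out. Against attached vehicle 3724 were called, and 2061, 2381 and 2239 with counts rebuilt from TPM, without attached vehicle replicate 3 and without suspended AT-0174 replicate 1. Among the lists, with suspension, the calls of *CDK4* and *CDC37* were lost without attached vehicle replicate 2 or 3 or suspended vehicle replicate 2 or 3, that of *CDKN3* without attached vehicle replicate 2 or 3 or suspended vehicle replicate 1 or 2, and the lists of turnover enzymes and p53 targets fell from 4 to 2 without attached vehicle replicate 3 or suspended vehicle replicate 1 or 2. The E2F list fell from 3 to 1 without suspended vehicle replicate 2 or 3, the mitosis list from 3 to 1 without suspended vehicle replicate 2, and the RB list rose from 2 to 4 without suspended vehicle replicate 3. *CCND2* and *CDKN1C* had at most 1 and 24 counts per library, so their levels are the least precise of the 10 genes.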
